A study of Mus musculus with 2 samples.

Results

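The genes followed were 6 of 24905 in the deposited count table, namely Sim1, Sim2, Arnt, Arnt2, Arntl and Npas4. They were chosen by name, as Sim1 with close relatives and dimer partners, with earlier results of these data known. All 6 had counts. The cells came from the hypothalamus of CD-1 mouse pups at postnatal day 1 to 4. A control library was made from Sim1-Cre;tdTomato pups and a second library from pups that also carried 1 mutant allele of Sim1 (Sim1+/-), each pooled from 6 pups per the labels (the protocol text says 5 to 6). In both, Cre driven by Sim1 had switched on the red reporter tdTomato, and live red cells were sorted before Drop-seq, a droplet method that labels each captured molecule with a unique molecular identifier (UMI). The sort therefore takes in cells that expressed Sim1 only earlier in their lineage. With 1 library per genotype, each difference below is between 2 libraries, with no replicate check and no test. All intervals are exact 95% intervals of counting error and leave out differences between animals and preparations.

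SIM1 and SIM2 are transcription factors with a basic helix-loop-helix (bHLH) domain, which binds DNA, and a PAS domain, which helps choose the partner. Such class I proteins act as pairs with a class II protein, ARNT or ARNT2, or ARNTL (BMAL1) in the circadian clock. SIM1 with ARNT2 is needed for neurons of the paraventricular nucleus (PVN) to form, among them those that make oxytocin, vasopressin, corticotropin-releasing hormone (Crh) and thyrotropin-releasing hormone (Trh). NPAS4, another class I protein, is an immediate early transcription factor of neurons and also pairs with ARNT or ARNT2.

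Cells with at least 300 genes numbered 2806 in the control and 2454 in the Sim1 heterozygous library, with a median of 1772.5 and 1583 UMIs, and no barcode sequence was shared. Neuronal markers outweighed glial ones in 2747 and 2365 cells, called neuron-like, which held 6434196 and 5311167 UMIs. The other cells were few: 39 and 49 glia-like, 20 and 40 neither. Neuron-like cells were split by marker genes other than the 6 into 12 gates and a remainder. The mammillary gate (Foxb1, Lhx1 and Lhx5) held 34.4% of these cells in the control and 49.0% in the Sim1 heterozygous library, and the Otp gate held 18.7% and 10.9%. In all cells, summed markers of other cell types ran from 0.307 to 352 UMIs per 1000000 (CPM) in the control and from 0.928 to 267 in the Sim1 heterozygous library. The widest gap was in the pituitary markers, at 352 and 5.94 CPM, and the part of all these shifts in the results was not tested.

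Across all neuron-like cells, Npas4 and Arntl were higher in the Sim1 heterozygous library, Arnt2 was slightly higher and Sim1 lower, while Sim2 and Arnt were too sparse to show a difference. Counting a log2 ratio of at least 1.5-fold as a call, 2 of the 6 were higher and 0 lower. Over the 14437 genes with at least 30 UMIs in both libraries together, 7.91% were called higher and 9.14% lower, with a median log2 ratio of 0.04. Every log2 ratio divides the Sim1 heterozygous by the control level, after adding 1 UMI to each library. Levels of different genes are not set against each other here, since 3' tag counts were not corrected for how well each gene is captured.

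**Figure D1:**
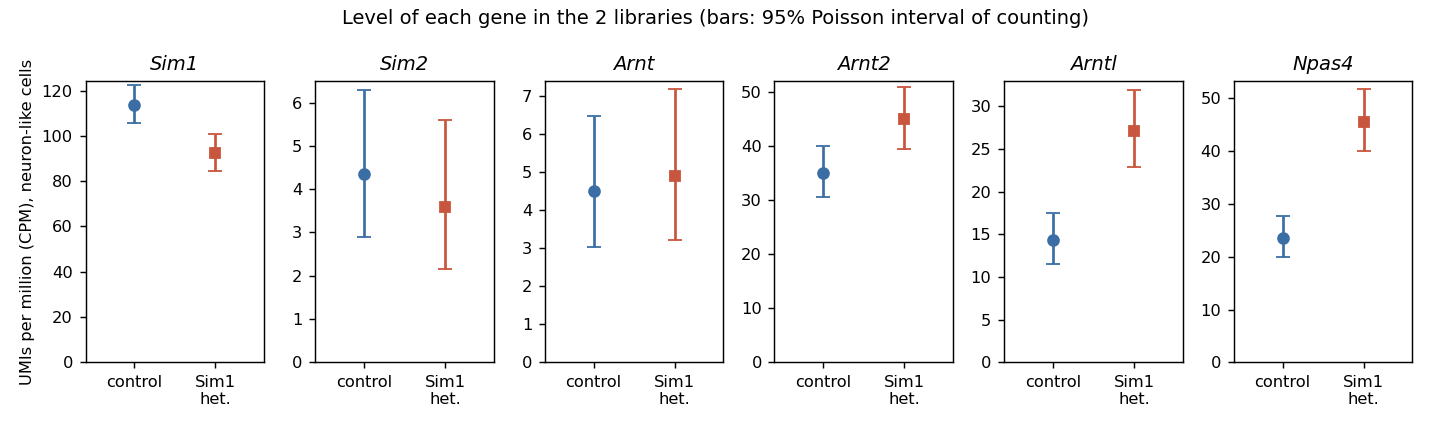
Level of each of the 6 genes in neuron-like cells, in CPM, with a separate axis starting at 0 for each gene; circles are the control and squares the Sim1 heterozygous library, and bars are 95% Poisson intervals. The intervals do not overlap for Sim1, Arntl and Npas4, overlap narrowly for Arnt2 and overlap widely for Sim2 and Arnt.

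Sim1 (chr10:50894754-50989152, plus strand, mm10) was at 114 CPM [106 to 122] in the control and 92.4 CPM [84.4 to 101] in the Sim1 heterozygous library, from 732 and 491 UMIs. The log2 ratio was -0.30 [-0.47 to -0.13], which is short of 1.5-fold. The sources used here do not give the part of Sim1 that the mutant allele lacks, so this 3' count does not check the genotype label. The counts per cell were low in both libraries. In the control, 2220 neuron-like cells had no Sim1 UMI, 381 had 1, 108 had 2, 26 had 3 and 12 had at least 4, with 8 as the most. In the Sim1 heterozygous library the numbers were 1975, 314, 54, 19 and 3, with 4 as the most. Cells with at least 2 UMIs held 48.0% of control and 36.0% of Sim1 heterozygous Sim1 UMIs.

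To compare cells of unequal depth, each was thinned at random to 800 UMIs, leaving out the shallower cells, 92 in the control and 533 in the other. Of the thinned neurons, 253 of 2660 held a Sim1 UMI in the control (9.51% [8.42 to 10.7]) and 129 of 1883 did in the Sim1 heterozygous library (6.85% [5.75 to 8.09]). Averaged over every possible thinning, a steadier figure added after the data were seen, the shares were 8.63% and 7.02%. Without thinning they were 19.2% and 16.5%. Of the glia-like cells, which should lack Sim1, 0 of 39 and 0 of 29 had a Sim1 UMI after thinning, which allows up to 7.69% and 10.3%. Median depth before thinning was 1791 and 1639 UMIs in neuron-like and 1266 and 879 in glia-like cells. The limits from the few glia-like cells lie near the neuron shares.

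Sim1 was present in nearly every neuron group and nearly missing from the thalamic gate (Tcf7l2, Lhx9 and Gbx2, transcription factors of the thalamus). In the control it was at 204 CPM [152 to 268] in the Oxt gate, 189 [119 to 287] in the Avp gate, 179 [126 to 247] in the Trh gate, 161 [139 to 185] in the Otp gate and 158 [91.8 to 252] in the Crh gate. These gates are marked by the PVN hormones named above, or by OTP, a homeobox factor needed for such neurons to form. Lower values were found in the mammillary gate at 99.5 CPM [86.8 to 114], in cells of no gate at 99.3 [83.2 to 118], in the Neurod6 gate at 83.4 [38.2 to 158] and in the Emx2/Fezf2 gate at 75 [30.1 to 154]. The GABA gate, at 113 CPM [56.3 to 202], and the gate of another hormone, Sst, at 111 [69.5 to 168], lay between. Their intervals overlapped those of both sets. No neighbours in this order had separate intervals. The intervals of the Oxt, Avp, Trh and Otp gates each lay above those of the mammillary gate and of cells of no gate, while that of Crh overlapped them. The thalamic gate had 3 Sim1 UMIs in 122 cells, 8.64 CPM [1.78 to 25.2], and the Pmch gate 1 UMI in 28 cells.

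The same order held in part in the Sim1 heterozygous library. Crh (142 CPM [75.5 to 243]) and Trh (138 [90.4 to 203]) stood at its top and the thalamic gate again at its foot, with 1 UMI in 26 cells (9.32 CPM [0.236 to 51.9]). That foot was the only neighbour whose interval was apart from the next. Too few cells were left to place the Oxt and Avp gates, with 10 and 17 cells and 7 and 3 Sim1 UMIs. The mammillary gate supplied 30.1% of control Sim1 UMIs and 53.2% of Sim1 heterozygous ones, and the Otp gate 27.0% and 13.6%. Of all neuron-like UMIs, the mammillary gate held 34.4% and 54.5% and the Otp gate 19.2% and 11.6%.

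**Figure D2:**
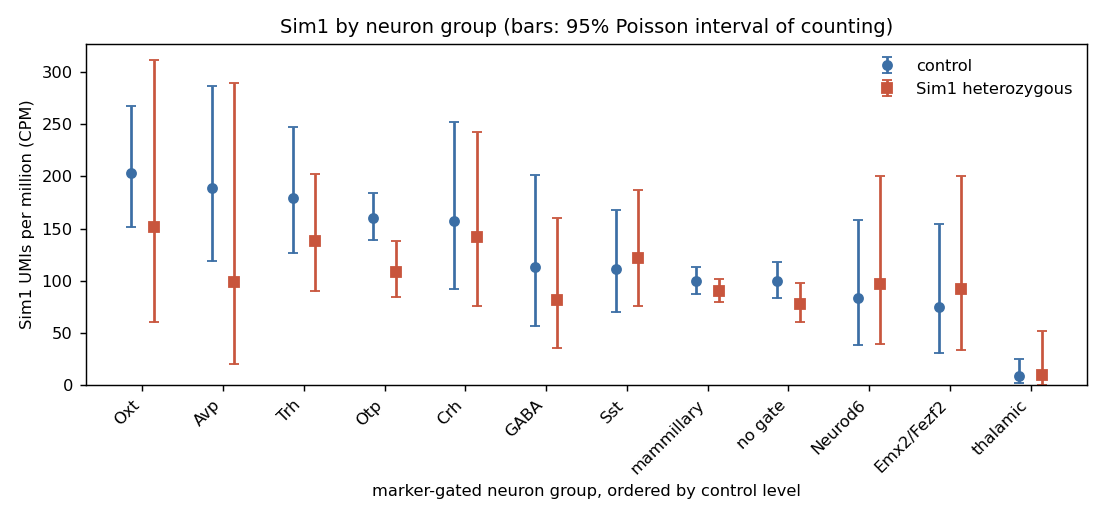
Sim1 level in CPM by marker-gated neuron group, ordered by the control level, for the control (circles) and the Sim1 heterozygous library (squares), with 95% Poisson intervals. The Oxt, Avp, Trh, Otp and Crh gates lie to the left, and the thalamic gate lies near 0 in both libraries. The Otp gate shows the libraries apart (161 and 109 CPM).

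The Otp gate showed the library difference in Sim1 most plainly. There Sim1 had 198 and 67 UMIs, or 161 and 109 CPM, a log2 ratio of -0.55 [-0.99 to -0.16]. In the mammillary gate it had 220 and 261 UMIs (99.5 and 90.2 CPM) and a log2 ratio of -0.14 [-0.41 to 0.12]. In cells of no gate the log2 ratio was -0.35 [-0.80 to 0.07]. With the Oxt, Avp, Crh and Trh gates summed, a pool formed after the values were seen, it was at 187 and 138 CPM, from 127 and 49 UMIs (-0.42 [-0.95 to 0.05]). Of the 9 groups with at least 20 cells in both libraries and at least 10 Sim1 UMIs, 6 were lower by CPM and 3 higher. The Otp gate was the only one of the 9 whose interval left out 0. In that gate 10% of 8141 genes were called higher and 8.75% lower, and in cells of no gate 10.1% of 9069 were called higher and 7.78% lower. Whether the gates differ from each other in this ratio was not tested.

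Sim2 (chr16:94084931-94127032, plus strand), the paralog of Sim1, was sparse, with 28 control and 19 Sim1 heterozygous UMIs in neuron-like cells. Its levels of 4.35 CPM [2.89 to 6.29] and 3.58 CPM gave a log2 ratio of -0.26 [-1.20 to 0.61], so no difference was detectable at this depth. By group, the Trh gate had 3 and 5 Sim2 UMIs, and its 14.5 and 26.6 CPM were the largest values in both libraries. With groups ordered by Sim2 level, the intervals of all neighbours overlapped in both libraries. Which group was highest is thus not settled at this depth. The Otp gate had 14 Sim2 UMIs in the control and 1 in the Sim1 heterozygous library, 11.4 and 1.62 CPM, a log2 ratio of -1.91 [-8.21 to -0.09]. The mammillary gate went from 3 to 9 UMIs, 1.36 and 3.11 CPM, with an interval that held 0 (0.93 [-0.81 to 3.72]). The Otp gate thus held 50% of the control UMIs of Sim2, beside 19.2% of all control neuron-like UMIs. In the Sim1 heterozygous library it held 5.26% of them, beside 11.6% of all, so the higher share was seen in the control only.

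Arnt (chr3:95434388-95497240, plus strand), the general partner of class I PAS proteins, was as sparse. It had 29 and 26 UMIs, 4.51 CPM and 4.90 CPM, with a log2 ratio of 0.12 [-0.70 to 0.93]. No control cell held more than 1 Arnt UMI. In the Oxt, Avp, Crh and Trh gates together Arnt had 5 UMIs in 225 control cells and 0 in 111 Sim1 heterozygous cells, and a count of 0 there allows a level of up to 8.43 CPM. The depth does not separate that from the control level of 7.35 CPM.

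Arnt2 (chr7:84246278-84410176, minus strand), the partner of Sim1 in the developing hypothalamus, was found in every neuron group in both libraries in which at least 20 cells were present. It was at 35.1 CPM in the control and 45 CPM in the Sim1 heterozygous library, from 226 and 239 UMIs, a log2 ratio of 0.36 [0.09 to 0.63]. In the control it ranged over those 10 groups from 9.27 CPM (Neurod6 gate, 1 UMI) to 61.5 CPM (GABA gate, 6 UMIs). In the Sim1 heterozygous library it ranged from 37.3 CPM (thalamic gate, 4 UMIs) to 91.2 CPM (GABA gate, 9 UMIs). No neighbours in either order had separate intervals. GABA and Crh gates were first and second in both libraries, with Crh at 55.6 and 87.3 CPM.

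In the thalamic gate Arnt2 had 10 and 4 UMIs, 28.8 CPM [13.8 to 52.9] in the control and 37.3 CPM [10.2 to 95.4] in the Sim1 heterozygous library. Both values lie below the level over all neuron-like cells, but their intervals hold it. Of 8 groups with at least 10 Arnt2 UMIs, 7 were higher in the Sim1 heterozygous library and 1 lower. The Sst gate, with 2 and 9 UMIs, was the only one with an interval above 0 (1.94 [0.10 to 5.62]). In the mammillary gate the log2 ratio was 0.41 [-0.02 to 0.87] and in the rest of the neuron-like cells 0.41 [0.05 to 0.76]. After thinning, 57 control cells (2.14%) and 66 Sim1 heterozygous cells (3.51%) had an Arnt2 UMI, or 2.79% and 3.36% averaged over all thinnings, and 7.61% and 8.92% unthinned. Of the glia-like cells 2 of 39 (5.13%) and 0 of 29 had one, so these shares are not set apart from those of glia. With the 10 groups weighted equally the log2 ratio was 0.78, a value that gives the small gates as much weight as the large ones. A noncoding gene on the opposite strand, Gm30873, shares exon sequence with Arnt2. Whether strand was used in counting is unknown here, so its reads could not be told from those of Arnt2.

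Arntl (chr7:113207465-113314126, plus strand) encodes BMAL1, the class II member of the circadian activator CLOCK-BMAL1. It had 92 UMIs in the control and 144 in the Sim1 heterozygous library, 14.3 CPM [11.5 to 17.5] and 27.1 CPM [22.9 to 31.9]. This was 1.90-fold higher, a log2 ratio of 0.92 [0.54 to 1.32]. The mammillary gate supplied 54.3% of its control and 75% of its Sim1 heterozygous UMIs, and held 34.4% and 54.5% of all neuron-like UMIs. Within that gate Arntl was at 22.6 CPM and 37.3 CPM, from 50 and 108 UMIs (0.71 [0.23 to 1.24]). In cells of no gate it was at 8.15 and 19.9 CPM, from 11 and 18 UMIs (1.24 [0.12 to 2.51]). Without the mammillary gate the log2 ratio was 0.59 with an interval that held 0 [-0.10 to 1.26], and with the 10 groups weighted equally it was 0.30. After thinning, 29 control cells (1.09%) and 44 Sim1 heterozygous cells (2.34%) had an Arntl UMI, against 2 of 39 and 0 of 29 glia-like cells; unthinned, 3.13% and 5.54% of neuron-like cells did. The pooled ratio of 0.92 was thus larger than that on either side of the mammillary gate. Gm45355, on the opposite strand, shares exon sequence with Arntl and has the same limit as Gm30873.

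Genes of the circadian clock were looked at next to Arntl. Of 15 listed, 13 had at least 30 UMIs. Of these 6 were at least 1.5-fold higher and 0 lower, with a median log2 ratio of 0.52, against 7.91% called higher and a median of 0.04 over all genes tested. The share over all genes was not matched for their UMIs. The list was chosen with earlier results of these data known, and its members were not independent of each other. The 2 genes with the most UMIs were not called: Clock, the class I partner of BMAL1, was at 0.36 [0.09 to 0.63] and Cry1, which inhibits the pair, at -0.22 [-0.48 to 0.03]. The 2 with the interval farthest from 0 were Nr1d2, a nuclear receptor that represses Arntl, with 55 and 89 UMIs (0.96 [0.47 to 1.48]), and Tef, a PAR bZIP factor of the clock output, with 84 and 121 UMIs (0.80 [0.39 to 1.22]). The other 4 called, named after their values were seen, were Per1 (1.34), Dbp (1.00), Per3 (0.86) and Hlf (0.60). Their UMIs were 11 and 24 for Per1, 22 and 37 for Dbp, 17 and 26 for Per3 and 91 and 114 for Hlf. The intervals of Per1 [0.32 to 2.58], Dbp [0.23 to 1.86] and Hlf [0.19 to 1.02] left out 0. PER1 and PER3 belong to the repressing arm, and DBP and HLF are relatives of TEF. The interval of Per3 held 0 [-0.05 to 1.86].

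Within the mammillary gate alone, 7 of the clock genes had at least 30 UMIs and 4 were called higher (Cry2, Nr1d2, Tef and Hlf) and 0 lower, with a median of 0.61. There 8.12% of 11780 genes were called higher and 8.34% lower, with a median of 0.04. Nr1d2 was at 0.93 [0.22 to 1.78] with 21 and 54 UMIs, and Hlf at 0.87 [0.33 to 1.47] with 38 and 92. Cry2 and Tef were named after their values were seen, and the interval of Cry2, a repressor of the clock, held 0 (0.61 [-0.20 to 1.55]). The pups of a library were pooled, and the hour at which they were dissected is unknown here, so genotype and time of day cannot be told apart for these genes.

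**Figure D3:**
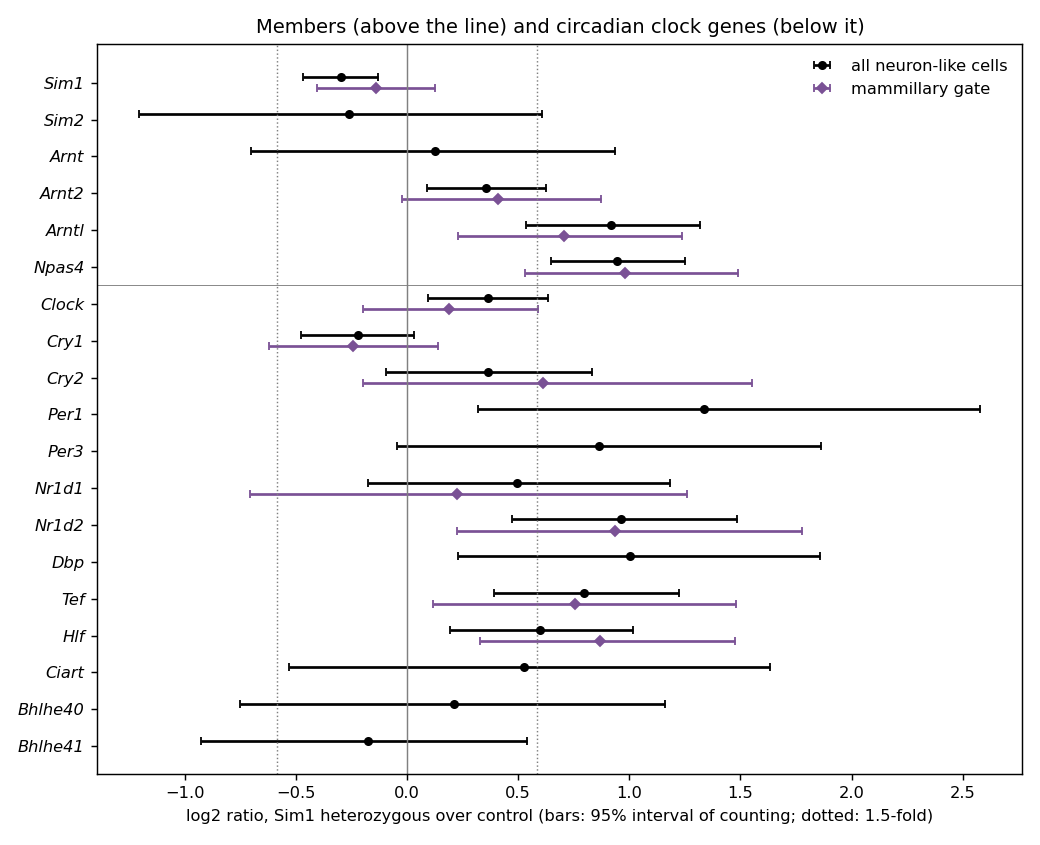
The log2 ratio of the Sim1 heterozygous over the control library for the 6 genes and for the clock genes with at least 30 UMIs, in all neuron-like cells (black circles) and in the mammillary gate (purple diamonds, where it had 30 UMIs too), with 95% intervals; dotted lines mark 1.5-fold. Arntl and Npas4 lie right of the line in both sets of cells, as do Nr1d2, Tef and Hlf, while Cry1 lies left of 0.

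Arntl and Tef were each higher in the Sim1 heterozygous library, and CLOCK-BMAL1 binds the canonical E-box, CACGTG. The 250 bases before the annotated start of each gene are shown. They are from RefSeq (GRCm38.p6), read 5′ to 3′ on the gene's strand, which is plus for both. Capitals mark an E-box. The Arntl window is chr7:113207215-113207464 and the Tef window, before the second of 2 starts in the table, is chr15:81811164-81811413. Neither overlaps an annotated exon.

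Arntl: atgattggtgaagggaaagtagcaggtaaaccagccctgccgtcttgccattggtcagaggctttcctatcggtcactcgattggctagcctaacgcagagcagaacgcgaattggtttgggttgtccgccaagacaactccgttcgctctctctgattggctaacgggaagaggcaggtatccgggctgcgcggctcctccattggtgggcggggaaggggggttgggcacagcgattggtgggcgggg

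Tef: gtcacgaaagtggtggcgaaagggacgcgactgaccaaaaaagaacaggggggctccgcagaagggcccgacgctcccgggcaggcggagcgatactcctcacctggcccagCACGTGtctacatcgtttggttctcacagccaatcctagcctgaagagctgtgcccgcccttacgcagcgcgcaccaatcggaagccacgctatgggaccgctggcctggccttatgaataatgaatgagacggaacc

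The Tef window held 1 E-box and the Arntl window none. Tef was picked for display after its letters were seen. Of the 6 clock genes called higher, Tef and Per1 had an E-box in at least 1 of their windows, and Dbp, Hlf, Nr1d2 and Per3 had none. Of the 6 genes not called that had an entry, 3 had one (Bhlhe41, Ciart and Cry1). The E-box reads the same on both strands, and it contains the core ACGTG that pairs of a class I PAS protein with ARNT bind. CACGTG was found in 6.02% and ACGTG in 16.6% of 32851 promoter windows of this length. The Arntl window also held no AGGTCA, the core of the site bound by the ROR and REV-ERB receptors, which 14.0% of windows held on either strand. These are matches of letters and do not show binding, and a window without them says nothing about other positions. Of the 6 genes, 5 had an entry in the promoter table. Sim2 was not among them.

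Npas4 (chr19:4984355-4990316, minus strand) was the member with the widest difference. It had 152 control and 242 Sim1 heterozygous UMIs, 23.6 CPM [20.02 to 27.7] and 45.6 CPM [40.004 to 51.7]. It was 1.93-fold higher in the Sim1 heterozygous library, with a log2 ratio of 0.94 [0.65 to 1.25]. After thinning, 46 of 2660 neurons (1.73%) had a UMI in the control and 72 of 1883 (3.82%) in the other library, or 2.05% and 3.92% averaged over all thinnings, and 4.88% and 8.12% unthinned. Glia-like cells had no Npas4 UMI in either library, but after thinning a count of 0 in 39 and 29 cells allows up to 7.69% and 10.3%, more than the neuron shares. Cells with at least 2 UMIs held 20.4% and 34.3% of its UMIs, and the most in a cell was 4 and 6.

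By group, Npas4 was at 23.5 and 47.0 CPM in the mammillary gate, from 52 and 136 UMIs (0.98 [0.53 to 1.49]). In the rest of the neuron-like cells the log2 ratio of Npas4 was 0.89 [0.48 to 1.30]. With groups weighted equally it was 0.85, a value that gives the small gates as much weight as the large ones. The part of the gates' shares in the difference was not tested. In cells of no gate it was at 16.3 and 37.5 CPM (1.18 [0.39 to 2.05]). In the Crh gate it was at 37.1 CPM in the control and 142 CPM in the Sim1 heterozygous library (1.72 [0.24 to 4.01]), the highest level there among the 10 groups. Those 13 UMIs lay in 6 of 38 cells, 6 of them in 1 cell. UMIs of a cell are not independent, so such intervals are too narrow. The Trh gate had the highest control level, 72.7 CPM from 15 UMIs, and 37.3 CPM from 7 in the Sim1 heterozygous library (-0.87 [-2.50 to 0.42]). Of 6 groups with at least 10 Npas4 UMIs, 5 were higher in the Sim1 heterozygous library and 1 lower, and 4 of the 5 had an interval above 0. The Otp gate was the exception among the 5, at 25.9 and 29.2 CPM (0.20 [-0.75 to 1.05]).

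**Figure D4:**
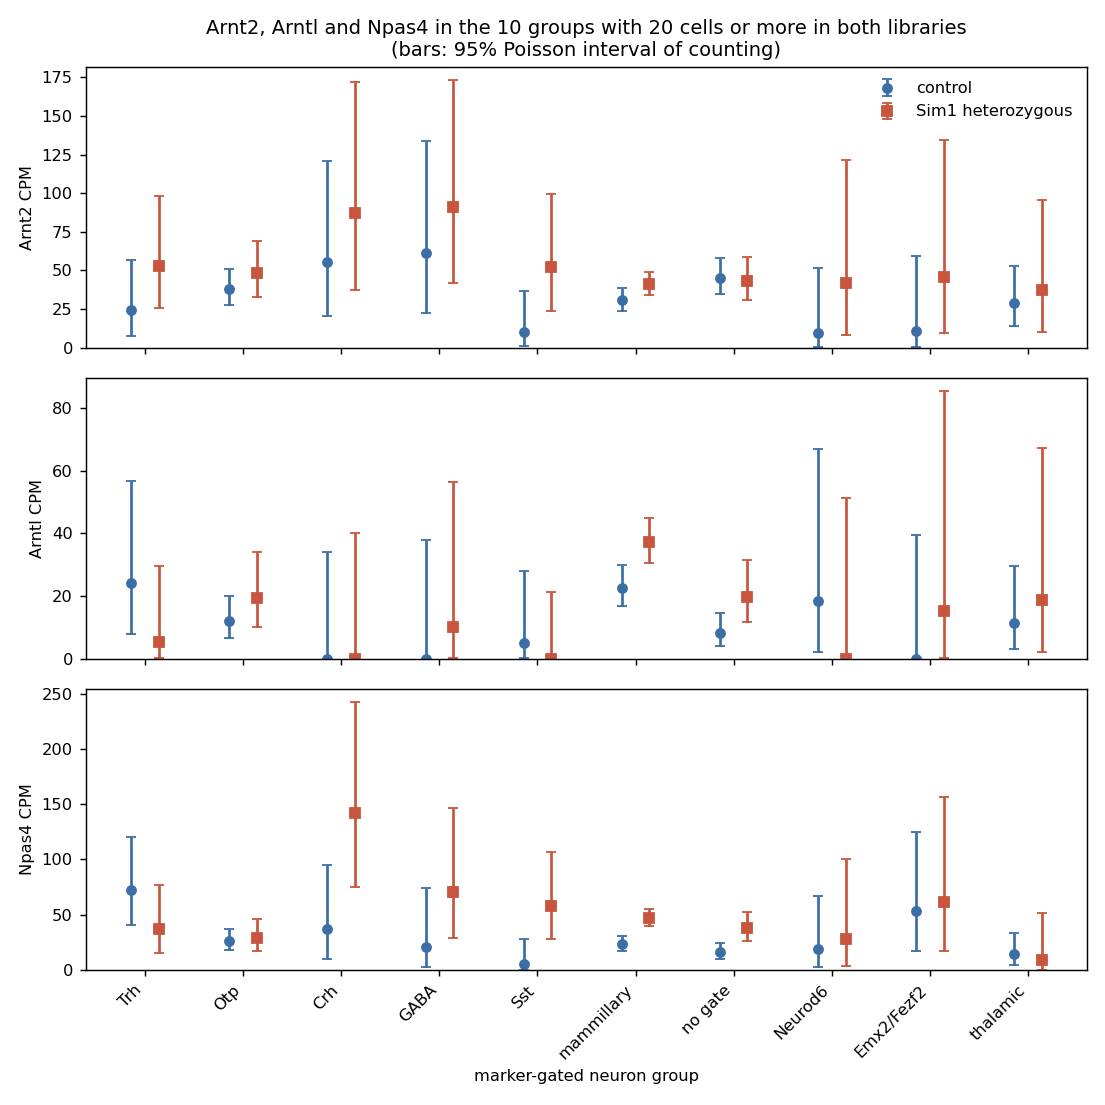
Levels of Arnt2, Arntl and Npas4 in CPM in the 10 neuron groups with at least 20 cells in both libraries, for the control (circles) and the Sim1 heterozygous library (squares), with 95% Poisson intervals. Arnt2 is spread over all groups, Arntl is most firmly measured in the mammillary gate (22.6 and 37.3 CPM), and Npas4 is highest in the Trh gate of the control and in the Crh gate of the Sim1 heterozygous library.

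Other genes that follow neuronal activity, many of them immediate early genes switched on within minutes, were mixed. Of 9 with at least 30 UMIs, 2 were called higher and 0 lower, with a median log2 ratio of 0.20, beside 7.91% called higher and 9.14% lower over all genes tested. Fos, a subunit of AP-1, was at 0.79 [0.51 to 1.08] with 177 and 253 UMIs, and Nr4a1, a nuclear receptor named after its values were seen, was at 1.05 from 16 and 28. Bdnf, a neurotrophin that NPAS4 is known to drive, was at 0.55 [0.40 to 0.69], just under the 1.5-fold line. Egr1, a zinc finger factor named after its values were seen, was at -0.04 [-0.35 to 0.27]. In the mammillary gate, Fos had 25 and 109 UMIs, 11.3 and 37.7 CPM (1.69 [1.10 to 2.43]), and Bdnf was at 0.52 [0.32 to 0.73]. The labels' protocol has the cells dissociated with papain and sorted alive before capture.

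Npas4 and Fos UMIs fell in the same cells more often than the product of their shares gives. At 800 UMIs, 5 control cells held both against 1.12 expected from the product of their shares (observed over expected 4.45 [1.44 to 10.4]). In the Sim1 heterozygous library 9 cells did, against 2.71 expected (3.32 [1.52 to 6.29]). Averaged over all thinnings at 800 UMIs the ratios were 3.13 and 2.75. At 1500 UMIs 2 control cells (1.35 [0.16 to 4.87]) and 9 Sim1 heterozygous cells (2.18 [0.998 to 4.14]) held both. Those intervals held 1, and the averages at that depth were 2.37 and 2.59. Npas4 and Egr1 gave 3.65 and 2.12 by the average at 800 UMIs, and Npas4 and Bdnf 0.727 and 1.18. The random thinning to 800 UMIs gave Npas4 and Egr1 4.32 [1.40 to 10.1] in the control and 1.38 [0.17 to 4.97] in the other.

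For Sim1 and its partners no such excess was detectable at this depth. With Arnt2, 9 control cells held both against 5.42 expected (1.66 [0.76 to 3.15]), and 5 Sim1 heterozygous cells against 4.52 (1.11 [0.36 to 2.58]). Averaged over all thinnings, the ratio was 1.12 in the control and 0.993 in the Sim1 heterozygous library. An Arnt2 UMI was then present in 3.12% of cells with a Sim1 UMI and 2.76% of those without in the control, and in 3.34% and 3.37% in the other. Unthinned, 52 and 53 cells held both, 1.30 [0.97 to 1.70] and 1.52 [1.14 to 1.99] times the expected number. Unthinned ratios rise where cells differ in depth, since a deep cell is more likely to show both genes.

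The other pairs rested on few cells. Sim1 and Npas4 were found together in 6 control cells (1.37 [0.50 to 2.98]) and 6 Sim1 heterozygous cells (1.22 [0.45 to 2.65]), with averages of 1.00 and 1.13. Sim1 and Arntl were found together in 2 and 4 cells, with averages of 1.05 and 1.07. Sim1 and Arnt shared 1 cell in each library, with averages of 0.584 and 2.67 that rest on 0.564 and 1.27 cells. Sim1 and Sim2 shared 3 control cells against 1.33 expected (2.25 [0.46 to 6.58]) and 1 Sim1 heterozygous cell, with averages of 2.21 and 1.33. At 1500 UMIs, Sim1 and Sim2 shared 5 control cells (3.10 [1.01 to 7.22]). That draw was above its average over all thinnings, 2.97 cells and a ratio of 2.29. With the expected number summed within neuron groups, the draw gave 2.43 [0.79 to 5.66], which held 1. No thinned pair of Sim1 with Arnt, Arnt2, Arntl or Npas4 had an interval that left out 1 at 800 UMIs.

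The same measure was computed for genes of the PVN. With Otp, 67 control cells held both against 48.9 expected (1.37 [1.06 to 1.74]). Within groups, of which Otp itself defines 1, the ratio was 0.962 [0.75 to 1.22], and 1.13 [0.92 to 1.38] at 1500 UMIs. In the Sim1 heterozygous library the random thinning gave 12 cells against 15.3 expected (0.782), while the average over all thinnings gave 22.0 (1.42), beside 1.54 in the control. That draw thus fell far below its own average. Nhlh2, a bHLH factor of hypothalamic neurons, gave averages of 1.30 and 1.69, and in the random thinning 1.17 [0.75 to 1.74] and 1.79 [1.06 to 2.82]. Pou3f3, a POU factor, gave averages of 1.16 and 1.34, and both its intervals in the random thinning held 1. Within groups its ratios were 1.76 [1.13 to 2.62] and 1.77 [0.89 to 3.17]. Zfhx4, a large zinc finger and homeobox factor, gave 1.02 and 1.03, and Uncx, a paired-type homeobox factor, 0.953 and 1.04. Plxna1, a semaphorin receptor, gave 0.715 and 1.08 and Magel2, an imprinted gene, 0.886 and 0.906. Of the genes named here, the random thinning to 800 UMIs left out 1 for Otp in the control and Nhlh2 in the Sim1 heterozygous library. That holds before groups are taken into account. For Otp it does not set the libraries apart, since the averages were near each other, also at 1500 UMIs (1.51 in the control and 1.37 in the other). The genes set beside Otp here were picked after their values were seen.

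Levels were also counted over all UMIs of a cell, without thinning. Control cells with 0, 1 and at least 2 Sim1 UMIs had Arnt2 at 34.8 [29.7 to 40.4], 37.3 [26.5 to 50.9] and 34.3 [20.4 to 54.3] CPM. In the Sim1 heterozygous library the levels of Arnt2 were 44.8, 46.1 and 43.7 CPM, again with wide overlap. Npas4 was at 23.2, 26.8 and 21.0 CPM in the control and 45.1, 47.1 and 46.8 CPM in the other. Arntl was more uneven, at 15.2, 9.55 and 15.3 CPM in the control and 28.1 [23.2 to 33.8], 17.4 [10.2 to 27.9] and 43.7 [23.9 to 73.3] CPM in the other, with intervals that overlapped from each class to the next. Sim2 was at 3.91, 2.87 and 11.4 CPM in the control, from 19, 3 and 6 UMIs, and at 3.49, 4.10 and 3.12 CPM in the other. Arnt was at 4.52, 4.78 and 3.82 CPM in the control and 4.48, 6.15 and 6.24 CPM in the other. For Npas4, Sim2 and Arnt too, the intervals of the 3 classes overlapped within each library. Otp, in those same control cells, was at 313 [297 to 329], 448 [408 to 491] and 542 [481 to 609] CPM, and in the Sim1 heterozygous cells at 205 [191 to 220], 248 [218 to 281] and 437 [367 to 516] CPM. Pou3f2, a POU factor downstream of Sim1 in the PVN, was at 53.3, 86.9 and 107 CPM in the control. In the Sim1 heterozygous library it was at 54.1, 71.7 and 65.5 CPM, with overlapping intervals. The cells differed in depth, with medians of 1710, 2197 and 2966.5 UMIs in the control and 1462, 2505 and 3825.5 in the other.

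**Figure D5:**
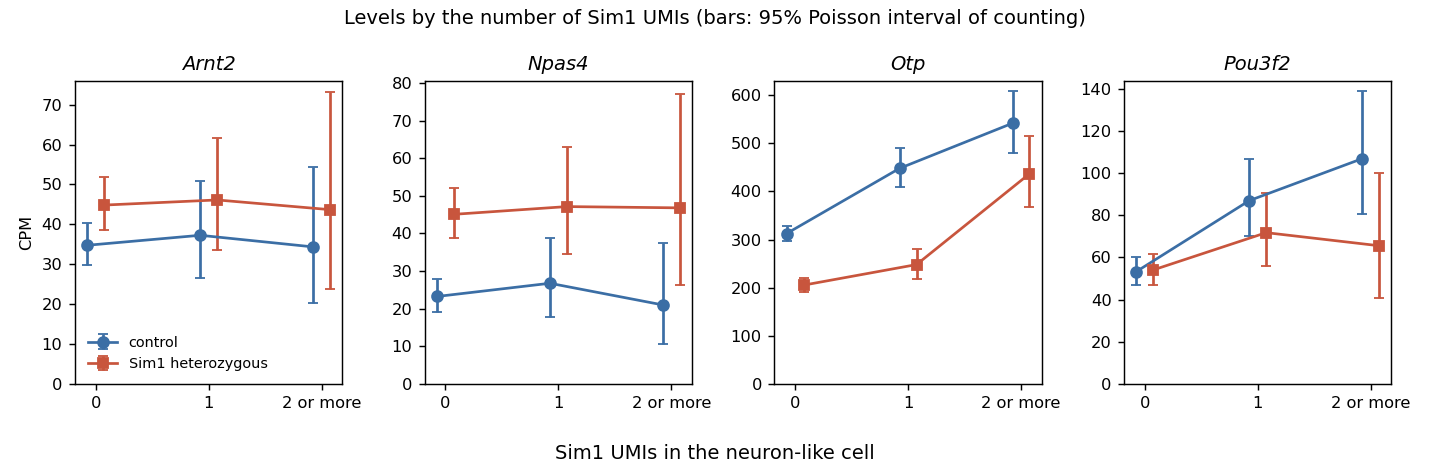
Levels in CPM of Arnt2, Npas4, Otp and Pou3f2 in neuron-like cells with 0, 1 or at least 2 Sim1 UMIs, for the control (circles) and the Sim1 heterozygous library (squares), with 95% Poisson intervals and axes starting at 0. Intervals of Arnt2 and of Npas4 overlap across the 3 classes, while Otp rises with Sim1 in both libraries, from 313 to 542 CPM in the control.

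The wider family was measured from lists of related genes. Of 10 other bHLH-PAS genes, 5 had at least 30 UMIs, 1 was called higher and 0 lower, with a median of 0.21. The shares over all genes tested, 7.91% higher and 9.14% lower, apply to this and the next 2 lists as well. Npas3, a neuronal class I gene, had 239 and 135 UMIs (-0.54 [-0.86 to -0.24]), short of 1.5-fold. Ahr, the dioxin receptor, had 36 and 55 (0.87 [0.26 to 1.54]) and was the one called higher. Hif1a, the oxygen-regulated class I gene, had 340 and 325 UMIs (0.21 [-0.01 to 0.44]). Hif1a and its relatives drive hypoxia genes as pairs with ARNT, and of 9 such targets 1 was called higher and 0 lower, with a median of 0.31. That was Vegfa, a growth factor of blood vessels, with 128 and 201 UMIs (0.92 [0.60 to 1.26]). Ldha, a glycolytic enzyme with the most UMIs of the list, was at -0.06 [-0.18 to 0.07], and Ddit4, a stress-induced inhibitor of mTOR signalling, at 0.33 [0.11 to 0.54].

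Of 8 chaperones and coactivators of PAS proteins, 1 was called higher, the coactivator Ncoa3 (0.64 [0.16 to 1.13]), and 0 lower, with a median of 0.17. The 2 forms of the chaperone HSP90 went apart, with Hsp90aa1 at 0.19 [0.14 to 0.24] and Hsp90ab1 at -0.22 [-0.24 to -0.20]. Of 13 genes of the PVN network around Sim1, 0 were called higher and 2 lower, with a median of 0.07, beside 7.91% called higher and 9.14% lower over all genes tested. Otp was lower (-0.64 [-0.74 to -0.54]). Zfhx4, at 0.53 [0.41 to 0.66], and Peg3, an imprinted zinc finger gene with the most UMIs of the list, at 0.27 [0.21 to 0.33], lay on the other side of 0, short of 1.5-fold. The other gene called lower, named after its values were seen, was Mc4r, the melanocortin receptor that limits feeding, with 34 and 16 UMIs and an interval that held 0 (-0.77 [-1.77 to 0.09]).

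Genes whose levels across the 10 groups were most like those of Sim1, by the lower of the 2 libraries' Pearson correlations of log2(CPM + 1) among 8058 genes, were Nnat (0.893 in the control and 0.826 in the Sim1 heterozygous library), Elmod1 (0.914 and 0.822), Peg3 (0.921 and 0.820), 6330403K07Rik (0.852 and 0.814) and Slc35b1 (0.789 and 0.837). The 10 points are groups of 1 library and share its depth, and no p is given. They rest largely on the thalamic gate, without which the values for Nnat were 0.495 and 0.712 and for Elmod1 0.328 and 0.300 over 9 groups. The profile of Sim1 itself correlated at 0.970 between the libraries, and at 0.699 without the thalamic gate. For Arnt2 the genes most alike were Ndufb6, A830010M20Rik, Dpp6, Egr1 and Grpel2, at 0.676 to 0.785, while its own profile correlated between the libraries at only 0.516.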

How the data were processed

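The deposited tables hold raw UMI counts per gene and barcode, which the authors made with 3' Drop-seq per the labels' protocols. The submitters' processing notes name bcl2fastq, Picard, STAR 2.6.0b, Seurat 3 and mm10. No source used here gives the annotation, counter, strand use or cell calling. The 2 library tables and the merged table held identical counts (11922773 UMIs, 5283 barcodes).

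Cells needed 300 genes (1 control and 22 Sim1 heterozygous barcodes were below). Glia-like cells had at least 4 UMIs of 8 glial markers and more of these than of neuronal markers. Neuron gates were exclusive and applied in the order Pmch, Oxt, Avp (10 UMIs each), Crh, Trh (2), Sst (3), thalamic, mammillary, Emx2/Fezf2, Neurod6, GABA (2 summed) and Otp (1). Doublets were not removed; leaving out the deepest 5% of cells was an alternative. CPM are UMIs summed over a group's cells per 1000000 of its UMIs. Intervals were exact Poisson (CPM and co-detection), conditional binomial (ratios) and Clopper-Pearson (shares); for a count of 0 the upper limit is that of 3 counts. Per list, the 2 genes with most UMIs and up to 2 with the ratio interval farthest from 0 were named; others are marked in the text as named after their values were seen. The members, gates and lists were chosen with earlier results of these data known. Promoters came from RefSeq (GRCm38.p6) and coordinates from GENCODE M21 (mm10). The interval and thinning code was tested on simulated data. Python 3.11.15, numpy 2.4.6, scipy 1.17.1 and pandas 2.3.3 were used, and edgeR 4.0.16 only for TMM scaling.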

Additional observations from a re-analysis of the deposited data

Results flagged for a closer look

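Npas4 went opposite ways in some neuron groups. Its log2 ratio, Sim1 heterozygous over control, was -0.87 in the Trh gate, against 2.66 in the Sst gate and 0.98 in the mammillary gate. The counting interval of the Trh gate did not overlap those of the other gates, but it held 0, and the difference between groups was not tested. In the Trh gate 15 control UMIs lay in 13 of 66 cells and 7 Sim1 heterozygous UMIs in 6 of 46. In the Sst gate 1 control UMI lay in 1 of 73 cells and 10 Sim1 heterozygous UMIs in 4 of 59, with 6 of them in 1 cell.

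Outside the cells analysed, the 22 Sim1 heterozygous barcodes with under 300 genes held 4 Npas4 UMIs. With all deposited barcodes kept, the log2 ratio of Npas4 in neuron-like cells was 0.95.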

How the results depend on the processing

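No paired analysis was possible because there is 1 library per genotype, and no library could be left out. Over 60 recomputed log2 ratios of the 6 genes (cell filters, scaling, pseudocount, weights, all cells, and the mammillary gate alone or left out, the last pair added after the data were seen), 57 moved by less than their counting interval and no call changed sign. The ranges were -0.35 to -0.14 for Sim1, 0.32 to 0.78 for Arnt2, 0.30 to 0.99 for Arntl and 0.85 to 1.03 for Npas4. Those of Sim2 (-0.89 to 0.93) and Arnt (-0.59 to 0.61) held both signs. The 3 that moved were Sim2 in the mammillary gate alone (0.93) and, with groups weighted equally, Arnt2 (0.78) and Arntl (0.30). At 0.30 Arntl was short of 1.5-fold, so its call was lost under that weighting. Without a minimum of UMIs, 4201 genes were called higher and 4288 lower, in place of 1142 and 1319. All 24 library levels and 16 group levels recomputed for the main groups stayed within their intervals, as did 413 of 452 others.

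Shares of cells depend on the depth thinned to by construction. At 500 UMIs they were, for Sim1, 5.51% (control) and 5.14% (Sim1 heterozygous), for Arntl 0.548% and 1.19%, and in the Sim1 heterozygous library 0.132% for Arnt, 2.19% for Arnt2 and 2.41% for Npas4. At 1500 UMIs they were 14.7% and 13.5% for Sim1, 4.99% and 6.91% for Arnt2, 2.02% and 4.00% for Arntl, 3.09% and 5.57% for Npas4, and 0.392% for Sim2 in the Sim1 heterozygous library. Averaged over all thinnings, Arnt2 in the control was at 2.79%, in place of 2.14%.

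Co-detection with Sim1 moved in 8 of 60 cases; the cause was not tested. At 500 UMIs the ratio was 0.324 for Arnt2 and 0 for Arnt in the control, and 0 for Sim2 and Arnt in the Sim1 heterozygous library. There Arnt was also at 0 at 1500 UMIs, Sim2 at 0 with another seed and without the deepest 5% of cells, and Arntl at 0.342 with another seed. Depth limits Sim2 and Arnt most, with under 30 UMIs per library.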
